A study of Homo sapiens with 6 samples.

Results

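The genes described here encode factors that build ribosomes in the nucleolus, and they were compared between U87 glioma cells with and without knockdown of PCGF1. The list names 58 genes chosen by function, with earlier results of these data known. A gene was measured when at least 1 probe set carried its symbol and no other, which held for 55 of the 58 out of 18132 genes in all. DDX18, EBNA1BP2 and GNL3 were not analysed here. A gene's value on an array is the mean of its probe sets, 129 in total, and no filter on low values was applied.

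Ribosomal RNA is transcribed in the nucleolus by RNA polymerase I as a long precursor. Small nucleolar ribonucleoproteins (snoRNPs) then guide its chemical modification, the box C/D class placing methyl groups and the box H/ACA class converting uridine to pseudouridine. Separate sets of assembly factors fold and cut the precursor into the small and the large ribosomal subunit. Many of these genes are known as targets of the transcription factor MYC, and their output is tied to cell growth.

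U87 is an established human glioma line, and 3 arrays carried RNA from cells with a lentiviral short hairpin RNA against PCGF1 while the other 3 were made from cells given a control lentivirus (NC). PCGF1 is a subunit of the repressive Polycomb complex PRC1.1. Both lines grew in DMEM with serum, the labels tag every knockdown array T0 and every control array T1 without explanation, and this tag and the knockdown cannot be told apart. The labels call the 3 arrays of a group biological replicates without saying whether separate cultures were used, and p-values therefore measure only the spread between these samples, part of which may be technical. In a bulk culture, fewer cells of a type and less RNA per cell cannot be told apart.

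Every value is a log2 signal centred on the median over the 6 arrays, which gives differences between arrays but no level of expression. Root mean square differences between 2 arrays of a group were at most 0.153, and those across groups at least 0.18. PCGF1 itself was at -0.27, -0.13 and -0.19 in the knockdown arrays and at 0.13, 0.27 and 0.29 in the controls. This is a fall to 74.3% of the control level (log2 fold change -0.43 ± 0.06, SE, limma adjusted p = 0.0041). The PCGF1 value rests on 1 probe set. An exact two-sided permutation test of PCGF1 gave p = 0.1, the smallest that 3 against 3 arrays allow. Without a level on the arrays the U87 identity could not be checked. Of 10 glioma and neural, 8 epithelial, 7 leukocyte and 6 endothelial marker genes, only the leukocyte marker LYZ passed the test, in the lower direction. For ACTB, the 3' control signal minus the 5' one, a measure of RNA integrity, was 0.11, 0.06 and 0.01 in the knockdown arrays and -0.03, 0.04 and -0.07 in the controls. For GAPDH it was 0.04, 0.02 and -0.01 in the knockdown arrays and 0.00, 0.01 and -0.01 in the controls. The ranges of the groups overlapped for both genes, and the part of RNA integrity in the results below was not tested.

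Of the 55 measured ribosome biogenesis genes 14 fell in the knockdown arrays, 0 rose and 41 did not pass the test (limma, adjusted p under 0.05 over all 18132 genes). The share that fell was 25.5%, where 4.63% of all genes fell, and 6.36% of all genes rose. Changes were small, with a median log2 fold change of -0.12 against -0.01 for all genes. No member changed 1.5-fold, and the 14 falls ran from 10.7% to 28.5% relative to control. At an unadjusted p under 0.05, 33 members were lower and 1, IMP3, was higher, where 12.4% of all genes were lower and 14.2% higher at that p. Fold changes were negative for 47 of 55 members, against 53.4% of all genes.

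The knockdown and control arrays did not overlap for 37 members that were lower and 2 that were higher. Over all genes 15.5% were lower without overlap and 17.1% higher without overlap. The count of members that passed was lower with 5 arrays. It was 7, 9 and 7 when knockdown replicate 1, 2 or 3 was dropped, and 9, 6 and 5 when control replicate 1, 2 or 3 was dropped. The share of all genes called lower was then 2.18% to 3.25%. The 5 genes NOP58, DKC1, UTP14A, WDR36 and BRIX1 passed in all 6 of these fits.

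**Figure D1:**
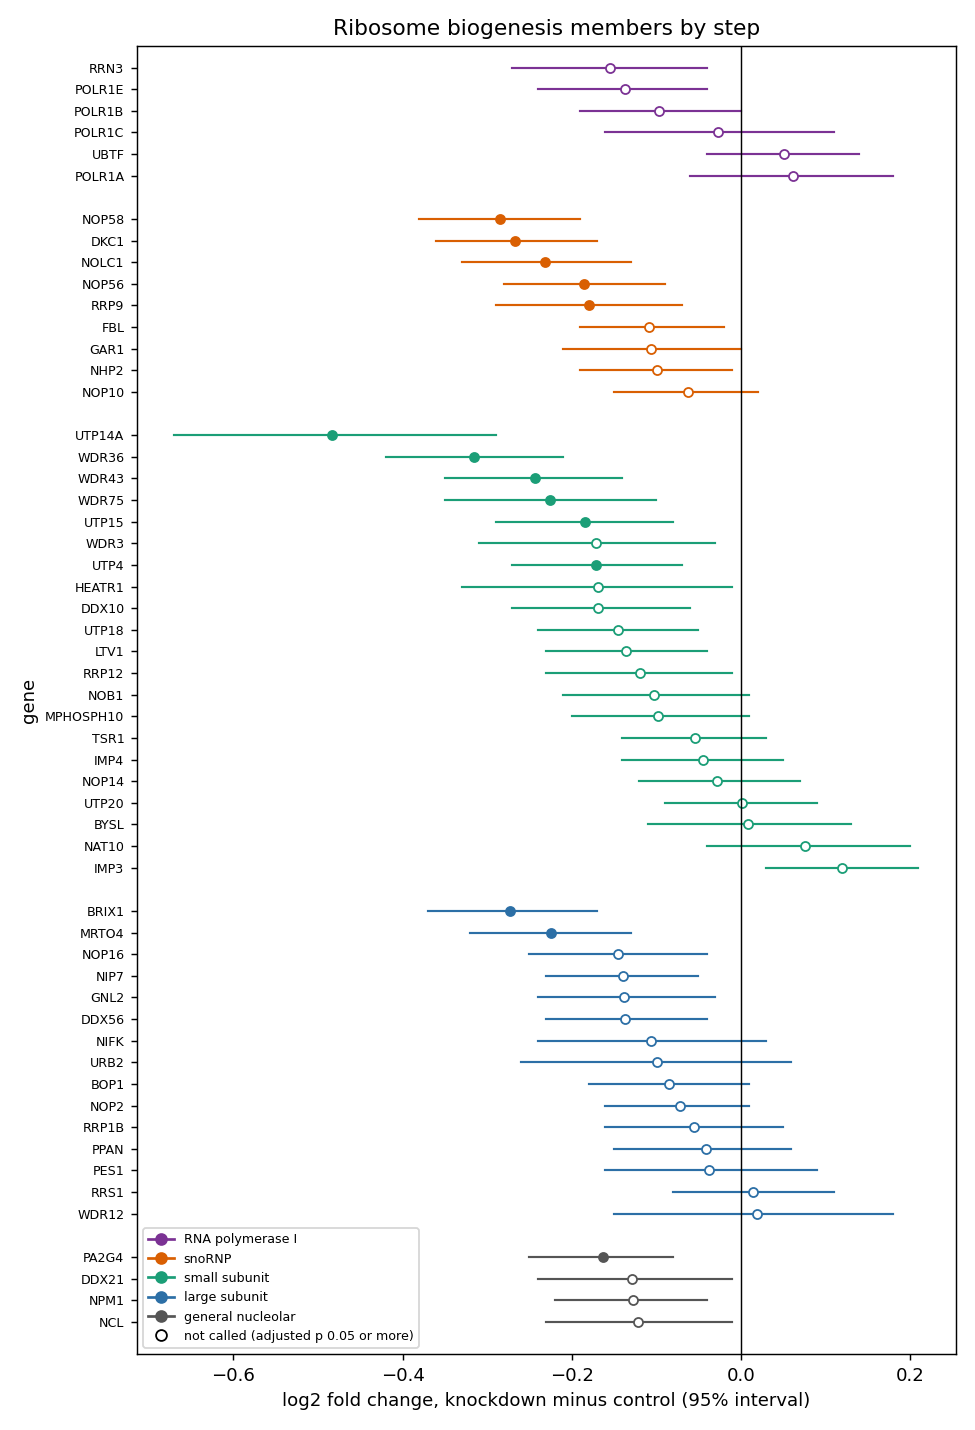
Log2 fold change (knockdown minus control, x axis) of the 55 measured genes (y axis) by step, with 95% intervals from limma, filled where adjusted p was under 0.05. The 14 filled points lie in every step except RNA polymerase I, and IMP3 has the highest value at 0.12.

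Transcription of ribosomal RNA was covered by 6 genes of the member list. None of them passed the test (0 of 6 by limma, where 4.63% of all genes fell). With so few genes, a lack of calls cannot be told apart from that share. At an unadjusted p under 0.05, 3 were lower and 0 higher, where 12.4% and 14.2% of all genes were. RRN3, the factor that recruits RNA polymerase I to its promoter, was at -0.13, -0.06 and -0.04 in the knockdown arrays and at -0.01, 0.14 and 0.11 in the controls. The groups did not overlap, and its log2 fold change was -0.15 ± 0.05 (SE, adjusted p = 0.0966). POLR1E, a subunit specific to the enzyme, was at -0.14 ± 0.04 (adjusted p = 0.0867). POLR1B, the second largest subunit, was at -0.10 (adjusted p = 0.174), with 5 of its 6 probe sets negative. POLR1C, a subunit shared with RNA polymerase III, was at -0.03. The largest subunit POLR1A was at 0.06 and UBTF, the factor that shapes the ribosomal RNA promoter, at 0.05, with adjusted p-values of 0.51 and 0.445. The median of the 6 genes was -0.06, the smallest shift of the 5 steps.

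In the member list the snoRNP genes had the largest share of falls, 5 of 9. Their median log2 fold change was -0.18. For all 9 genes the 3 knockdown arrays lay below the 3 controls, which held for 15.5% of all genes. NOP58, a core protein of box C/D snoRNPs, was at -0.17, -0.12 and -0.15 in the knockdown arrays and at 0.18, 0.11 and 0.13 in the controls. The groups stood well apart, and NOP58 fell to 82.1% of the control level (log2 fold change -0.29 ± 0.04, SE, limma adjusted p = 0.00465). Its partner NOP56 was at -0.13, -0.05 and -0.14 against 0.10, 0.09 and 0.05. It fell by 0.19 on the log2 scale (adjusted p = 0.0263), and all 4 of its probe sets were negative. RRP9, a protein of the U3 snoRNP that acts in early cleavage of the precursor, was at -0.18, -0.15 and -0.04 against 0.04, 0.07 and 0.05. It fell by 0.18 (adjusted p = 0.0465, the highest of the 14). FBL, the methyltransferase of the box C/D particles, did not pass, at -0.11 ± 0.04 (adjusted p = 0.105).

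DKC1, the pseudouridine synthase of box H/ACA snoRNPs, was at -0.10, -0.11 and -0.18 in the knockdown arrays and at 0.10, 0.14 and 0.16 in the controls. It fell to 83.1% of the control level (-0.27 ± 0.04, SE, adjusted p = 0.00717), and both of its probe sets passed on their own. The other proteins of the same particle did not pass: GAR1 was at -0.11, NHP2 at -0.10 and NOP10 at -0.06, with adjusted p-values of 0.174, 0.137 and 0.339. NOLC1, a phosphoprotein that chaperones both classes of snoRNP, was at -0.18, -0.15 and -0.07 in the knockdown arrays, while each control array read 0.10. It fell by 0.23 (adjusted p = 0.0137), although its 3 probe sets ranged from -0.39 to -0.09. The NOLC1 call was lost without control replicate 3 (adjusted p = 0.051). NOP56 passed only without knockdown replicate 2 and RRP9 only without knockdown replicate 3, with adjusted p-values up to 0.0921 and 0.127 when another array was left out. When genes were represented by their most variable probe set, the adjusted p was 0.122 for NOP56 and 0.124 for RRP9. RRP9 has only 1 probe set, so its own value stayed at -0.18 and its adjusted p moved with the other genes of the fit.

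**Figure D2:**
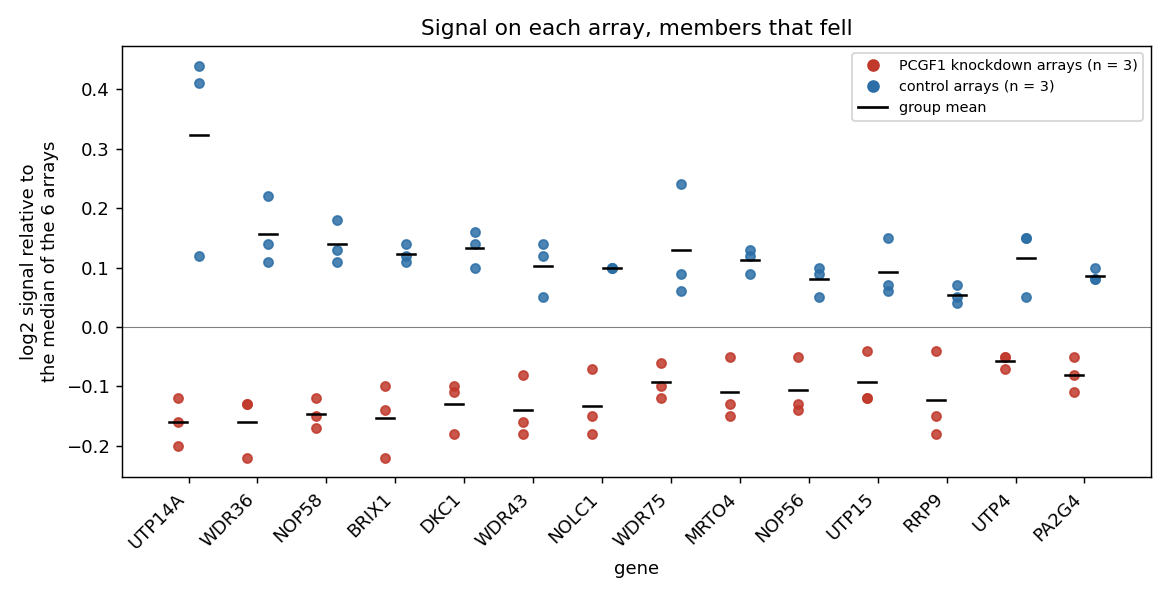
Log2 signal relative to the median of the 6 arrays (y axis) for the 14 genes that fell (x axis, ordered by fold change), with 3 knockdown and 3 control arrays as points and group means as bars. Every knockdown point lies below 0 and every control point above it, and the widest spread is among the UTP14A controls, from 0.12 to 0.44.

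Of 21 small subunit factors 6 fell, with a median log2 fold change of -0.14. UTP14A, a component of the early processome, had the largest fall of all members, at -0.20, -0.16 and -0.12 in the knockdown arrays and 0.12, 0.41 and 0.44 in the controls. Control replicate 1 was much nearer to the knockdown arrays than the other controls were. UTP14A fell to 71.5% of the control level (95% interval 62.8 to 81.5%, log2 fold change -0.48 ± 0.08, SE, adjusted p = 0.0102). The value rests on 1 probe set of the _x_at class, which can hybridise to related transcripts, and 1 further probe set annotated to several genes was left out.

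WDR36, a repeat protein of the processome, was at -0.22, -0.13 and -0.13 in the knockdown arrays and at 0.11, 0.14 and 0.22 in the controls. The log2 fold change was -0.31 ± 0.05 (SE, adjusted p = 0.00615), and its 3 probe sets were between -0.48 and -0.22. The other falls were in proteins of the subcomplex known as t-UTP or UTPA, which joins the precursor while it is still being transcribed. WDR43 was at -0.08, -0.16 and -0.18 against 0.05, 0.14 and 0.12, a fall of 0.24 (adjusted p = 0.0155). WDR75 was at -0.06, -0.10 and -0.12 against 0.09, 0.24 and 0.06, a fall of 0.23 (adjusted p = 0.0383), with control replicate 2 highest.

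UTP15 was at -0.04, -0.12 and -0.12 in the knockdown arrays against 0.06, 0.15 and 0.07 in the controls, a fall of 0.18 (adjusted p = 0.0408). UTP4 was at -0.05, -0.07 and -0.05 against 0.05, 0.15 and 0.15, a fall of 0.17 (adjusted p = 0.0421). HEATR1, a large protein of the same subcomplex, was at -0.17 and did not pass (adjusted p = 0.167), and its knockdown arrays spread from -0.23 to -0.01. The calls of WDR75 and UTP15 were lost whichever array was left out (adjusted p 0.0507 to 0.115 and 0.0545 to 0.124). UTP4 passed only without control replicate 1, with adjusted p up to 0.129 otherwise, and WDR43 was lost without knockdown replicate 3 or control replicate 2 or 3 (up to 0.0593). With _s_at and _x_at probe sets dropped, UTP15 and UTP4 were at adjusted p = 0.0573 and 0.0609, and with the most variable probe set UTP4 was at 0.128. In these settings their own values did not change, at -0.18 and -0.17. UTP15 has no probe set of the dropped classes, and UTP4 has only 1 probe set, of the _a_at class. These adjusted p-values moved with the other genes of the fit.

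The other 15 small subunit factors, HEATR1 among them, did not pass (adjusted p 0.0542 to 0.983). WDR3 was at -0.17 on average, but its 2 probe sets read -0.32 and -0.03. It passed when the _s_at probe set was left out (adjusted p = 0.0318). DDX10, an RNA helicase, was at -0.17 and passed with array weights (adjusted p = 0.047). UTP18 was at -0.15 and LTV1, a factor of late export and maturation, at -0.14. RRP12 was at -0.12, NOB1, the nuclease that makes the final cut of 18S ribosomal RNA, at -0.10, and MPHOSPH10 at -0.10. TSR1, IMP4 and NOP14 were at -0.05, -0.04 and -0.03. UTP20 and BYSL were at 0.00 and 0.01, signs that changed between settings.

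The highest values in the set also belonged to small subunit factors. IMP3, which binds the U3 snoRNA together with IMP4 and MPHOSPH10, was at 0.06, 0.06 and 0.02 in the knockdown arrays and at -0.11, -0.05 and -0.05 in the controls. The groups did not overlap, both probe sets were positive, and the log2 fold change was 0.12 ± 0.04 (SE, adjusted p = 0.0932). NAT10, which acetylates 18S ribosomal RNA, was at 0.08 (adjusted p = 0.409), with overlapping groups.

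Of 15 measured large subunit factors 2 fell, with a median of -0.10. BRIX1, which takes part in assembly of the early large subunit, was at -0.14, -0.10 and -0.22 in the knockdown arrays and at 0.12, 0.14 and 0.11 in the controls. It fell to 82.8% of the control level (-0.27 ± 0.04, SE, adjusted p = 0.00787), and all 4 of its probe sets passed on their own, between -0.35 and -0.24. MRTO4, which occupies the site of the ribosomal stalk until late maturation, was at -0.15, -0.05 and -0.13 against 0.09, 0.13 and 0.12. It fell by 0.22 (adjusted p = 0.0144). The MRTO4 call was lost when knockdown replicate 1 or 3, or control replicate 2 or 3, was dropped (adjusted p up to 0.0558), and also when _s_at and _x_at probe sets were dropped (adjusted p = 0.0878).

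NOP16, NIP7, the GTPase GNL2 and the helicase DDX56 were each at -0.14, with adjusted p-values from 0.0535 for NIP7 to 0.096 for GNL2, and NIP7 passed with array weights (adjusted p = 0.041). The 3 proteins of the PeBoW complex, which is needed for processing of the large subunit precursor, did not pass: BOP1 was at -0.09, PES1 at -0.04 and WDR12 at 0.02. WDR12 had a single high knockdown array, at -0.02, 0.21 and -0.06, and its value turned to -0.06 without knockdown replicate 2. NIFK was at -0.11, with 4 probe sets from -0.28 to 0.12. URB2 was at -0.10, the methyltransferase NOP2 at -0.07, RRP1B at -0.06, PPAN at -0.04 and RRS1 at 0.01. The URB2 knockdown arrays spread from -0.24 to 0.05.

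Of the 4 abundant nucleolar proteins that act in several steps, PA2G4 fell. PA2G4, a growth-regulated protein that binds ribosomal precursors, was at -0.05, -0.11 and -0.08 in the knockdown arrays and at 0.10, 0.08 and 0.08 in the controls. It fell by 0.16 (SE 0.04, adjusted p = 0.0323), but the call was lost whichever array was left out (adjusted p 0.0546 to 0.0942) and with its most variable probe set (adjusted p = 0.107). The helicase DDX21 and the chaperone NPM1 were each at -0.13, and nucleolin, NCL, was at -0.12, with adjusted p-values of 0.142, 0.0806 and 0.16. NPM1 had 6 probe sets, of which the lowest read -0.29 and passed (adjusted p = 0.0117 over probe sets) while the other 5 lay between -0.12 and -0.07. Taking that probe set alone for the gene gave an adjusted p = 0.0217.

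**Figure D3:**
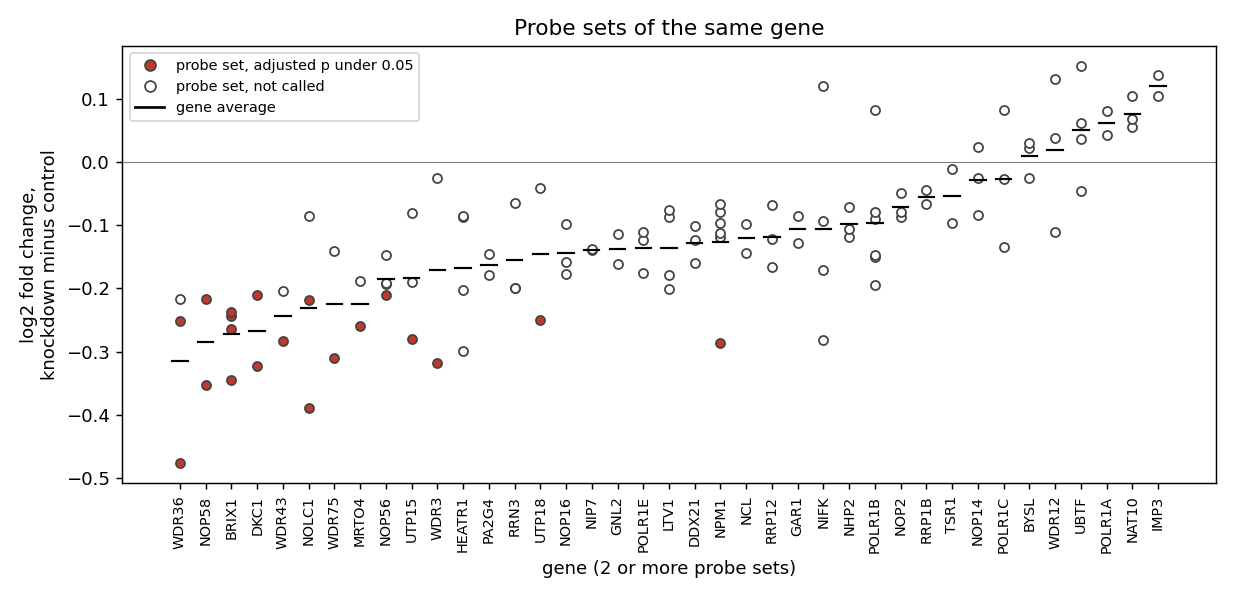
Log2 fold change (y axis) of each probe set of the 39 genes with 2 or more (x axis, ordered by gene average), filled where the probe set passed on its own; bars are gene averages. WDR3, UTP18 and NPM1 have 1 filled point each although their averages did not pass, and NIFK spans -0.28 to 0.12.

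Probe sets of the same gene mostly pointed the same way. Of 39 genes with 2 or more probe sets, 32 had probe sets of a single sign, and 7 (POLR1B, POLR1C, UBTF, NOP14, BYSL, NIFK and WDR12) were mixed. Among the 129 probe sets 109 were negative, 21 passed in the lower direction and 0 in the higher direction (limma). Over all single-symbol probe sets 2.99% were called lower and 4.43% higher. For agreement in sign and for negative probe sets no share over all genes is given here, so those counts only describe the members. UTP18 had 1 probe set that passed, at -0.25, and another at -0.04, and did not pass as a gene average.

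On each array the median over genes separated the groups for the snoRNP, small subunit, large subunit and general nucleolar genes. The snoRNP median was -0.10, -0.11 and -0.07 in the knockdown arrays and 0.07, 0.07 and 0.05 in the controls. For the small subunit factors it was -0.07, -0.05 and -0.03 against 0.05, 0.08 and 0.04, and for the large subunit factors -0.08, -0.04 and -0.09 against 0.05, 0.05 and 0.02. For the RNA polymerase I genes it was -0.06, -0.05 and -0.02 against -0.02, 0.02 and 0.07, so that control replicate 1 met the knockdown range. These medians describe the arrays, and the steps were not tested against each other.

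**Figure D4:**
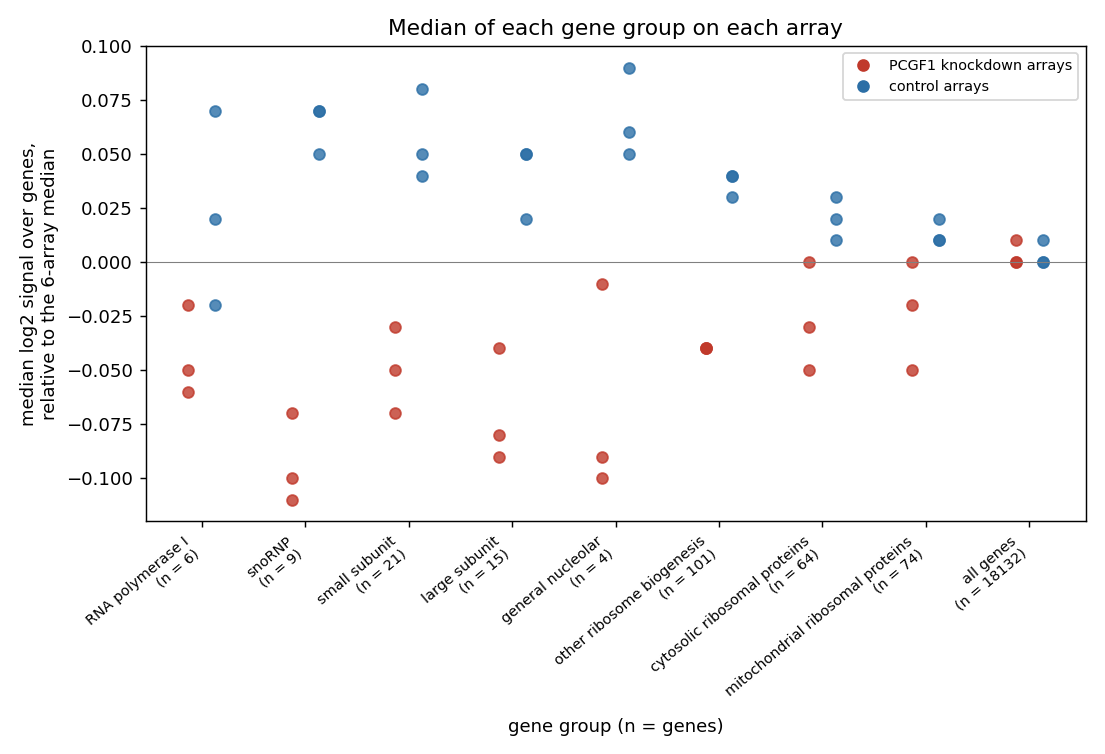
Median log2 signal over the genes of each group (y axis) on each of the 3 knockdown and 3 control arrays, for the 5 steps and for comparison groups (x axis, n = genes). The snoRNP medians are furthest apart, at -0.11 to -0.07 and 0.05 to 0.07, and those of all genes lie at 0.00 to 0.01.

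A further 103 ribosome biogenesis genes outside the member list were chosen by function, with earlier results of these data known. They were also mostly negative, with a smaller shift of the median, but the steps with falls differed. Of the 101 measured, 18 fell (17.8%) and 1 rose, with a median of -0.08, and 82 were negative. The count that fell was 7, 13 and 7 when knockdown replicate 1, 2 or 3 was dropped, and 8, 4 and 7 when control replicate 1, 2 or 3 was dropped. Among them LYAR, a nucleolar zinc finger protein, was lowest at -0.41 (SE 0.04, adjusted p = 0.00134). POLR1F, a stalk subunit of RNA polymerase I, was next, at -0.18, -0.15 and -0.20 in the knockdown arrays and at 0.15, 0.15 and 0.20 in the controls. It fell by 0.34 (adjusted p = 0.00185), whereas none of the 6 polymerase I genes in the member list passed. Of the other polymerase I genes in the further list, TAF1A, TAF1D and PWP1 fell by 0.24, 0.19 and 0.18 (adjusted p = 0.0263, 0.0439 and 0.0261). TAF1D rests on 1 probe set, with 5 annotated to several genes left out. Of the TAF1A probe sets 1 of 5 passed on its own, and of the PWP1 probe sets 0 of 4. Whether the TAF1A, TAF1D and PWP1 calls hold with an array left out is not given here. POLR1D, POLR1G, POLR1H, TAF1B, TAF1C, TTF1, TCOF1 and MYBBP1A did not pass. The lack of calls among polymerase I members thus holds for the member list only. NOPCHAP1, a chaperone of NOP58 in box C/D snoRNP assembly, fell by 0.30 (adjusted p = 0.0355). The other snoRNP genes of this list did not pass (SNU13, NUFIP1, ZNHIT3, ZNHIT6, NAF1, SHQ1, RUVBL1 and RUVBL2). SNU13, a core box C/D protein, was at 0.08 (adjusted p = 0.246), with every knockdown array above every control. The large share of snoRNP falls thus holds for the member list only. The gene that rose was the helicase DDX49, at 0.24 (adjusted p = 0.0165). The NOPCHAP1 call held only without knockdown replicate 2 (up to adjusted p = 0.105 otherwise), and that of DDX49 was lost without knockdown replicate 2 or control replicate 3 (up to 0.056). With the most variable probe set per gene they were at adjusted p = 0.0644 and 0.0574. Each of them has only 1 probe set, so its own value did not change in that setting.

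The structural proteins of the ribosome shifted less. None of 64 cytosolic ribosomal protein genes passed in either direction (limma; 10 lower, near the 12.4% of all genes, and 0 higher at an unadjusted p under 0.05). Their median was -0.05, and 56 (87.5%) were negative, against 53.4% of all genes. The groups did not overlap for 24 that were lower and 0 that were higher, where the shares of all genes were 15.5% and 17.1%. Of 74 mitochondrial ribosomal protein genes 8 fell (10.8%, against 4.63% of all genes) and 1 rose (1.35%, against 6.36%), with a median of -0.04. At an unadjusted p under 0.05 (limma), 22 of them were lower and 1 higher, where 12.4% and 14.2% of all genes were. The difference between these groups and the assembly factors was not tested.

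**Figure D5:**
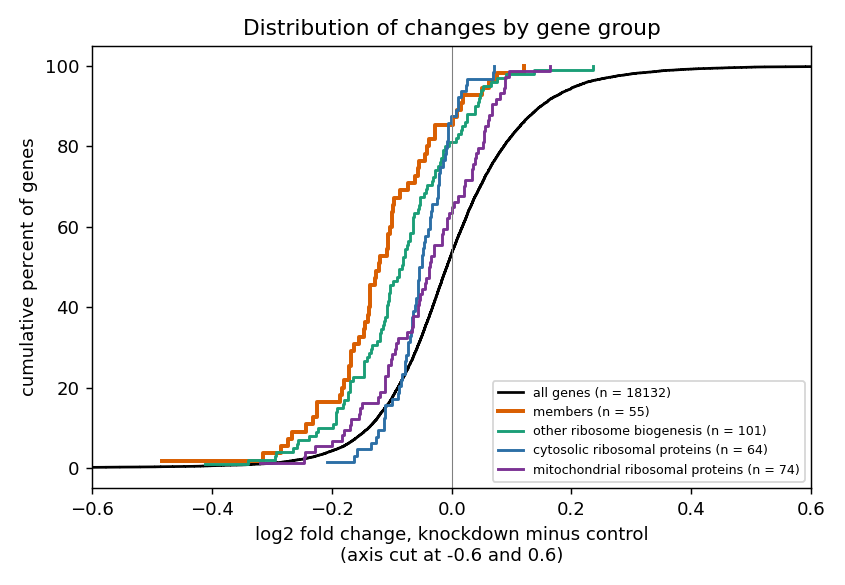
Cumulative percent of genes (y axis) by log2 fold change, knockdown minus control (x axis), for members, further ribosome biogenesis genes, ribosomal protein genes and all genes. The member curve has the lowest median of the 5, -0.12 against -0.01 for all genes, while the cytosolic ribosomal protein curve crosses it near 0.

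MYC, given here because of its known role at these genes and with its value already seen, fell as well. It was read by 1 probe set. MYC was at -0.25, -0.34 and -0.35 in the knockdown arrays and at 0.27, 0.25 and 0.26 in the controls (log2 fold change -0.58 ± 0.04, SE, adjusted p = 0.000321). Its part in the changes of the ribosome biogenesis genes was not tested.

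The E-box CACGTG, the site that MYC with its partner MAX and related factors are known to bind, was searched in the 250 bases before each RefSeq gene start (GRCh38.p14). It reads the same on both strands. Sequences were held for 46 of the 55 members, some with more than 1 start, which gave 54 promoters. The E-box was in 8 of these (14.8%), against 6.34% of all 35116 promoters in the table and 7.38% of those of genes on the arrays. It was in 13.7% of the promoters of the further ribosome biogenesis genes. A match is a description of these letters, not of a bound site.

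Among members that fell 2 of 12 genes held the E-box, and among those that did not pass 6 of 34. Counted by gene in the same way, 1416 of 14425 genes on the arrays with a sequence held it. Of the 8 genes 6 were small subunit factors (UTP14A, UTP4, UTP18, IMP4, UTP20 and NAT10), and the others were NOP10 and DDX21. The stretches below are those of the 2 that fell, UTP14A and UTP4, and of UTP20 and NAT10, which were picked after their values were seen. The E-box of UTP20 and NAT10 lies as close to the start as that of UTP4. This also holds for NOP10, which is not printed. The E-box is in capitals and begins 241, 16, 10 and 15 bases before the start of UTP14A, UTP4, UTP20 and NAT10. Each stretch is on the plus strand, 5′ to 3′, and lies upstream of the annotated gene start.
UTP14A, chrX:129905914-129905978: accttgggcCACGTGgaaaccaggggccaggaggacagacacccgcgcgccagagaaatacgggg
UTP4, chr16:69132583-69132648: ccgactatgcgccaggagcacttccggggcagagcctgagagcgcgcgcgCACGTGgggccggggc
UTP20, chr12:101280045-101280104: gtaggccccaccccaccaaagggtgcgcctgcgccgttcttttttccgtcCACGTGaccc
NAT10, chr11:34105564-34105628: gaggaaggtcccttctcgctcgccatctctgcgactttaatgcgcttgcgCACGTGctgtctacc
The 3 printed genes with an E-box next to the start had log2 fold changes of -0.17 for UTP4, 0.00 for UTP20 and 0.08 for NAT10, of which only UTP4 passed. NOP10, which also has an E-box close to its start, was at -0.06. The other genes with an E-box, UTP18, DDX21 and IMP4, were at -0.15, -0.13 and -0.04, and none of them passed. WDR36, BRIX1 and DKC1, which fell more than UTP4, had no CACGTG in this window, and NOP58 and NOLC1 had no sequence in the table. Whether the E-box goes with the change of a gene was not tested.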

How the data were processed

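RNA of 6 U87 samples was measured on Affymetrix arrays. The deposited table holds 1 log2 value per probe set and array, made by the authors with RMA per the submitters' processing notes (version not given; the log base is inferred from RMA). In the values, every probe set is centred on the median of its 6 arrays, within 4.85e-07, a step not given in the sources used here; brightness and distance from background are therefore unknown, and no filter on dim probe sets was possible. Of 49395 probe sets 102 Affymetrix controls were left out, and 44988 had 1 gene symbol in the platform annotation. They were averaged to 18132 genes.

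Groups were compared with limma 3.58.1 in R 4.3.3 (lmFit, eBayes, two-sided, no covariates, 4 residual degrees of freedom), with Benjamini-Hochberg adjustment over all genes; errors are limma's moderated SE. The number of arrays limits the precision. The fit was tested on simulated data. The members and lists were chosen with earlier results of these data known. By rule all members could be named, with values on each array for up to 5 that passed in each step, and of the further genes the 3 lowest and 3 highest called. The array values of UTP4, RRN3, IMP3 and WDR12, and MYC, were added after their values were seen. The same holds for the further polymerase I and snoRNP genes named beyond that rule. Deviations of equally numbered arrays from their group means correlated at -0.042, -0.0511 and 0.0116. These values gave no sign of pairing by number, but they cannot tell whether the samples were handled in pairs, which the labels do not say. Alternatives were a replicate block, 2 normalizations, array weights, a robust prior, other probe set choices and leaving out each array.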

Additional observations from a re-analysis of the deposited data

How the results depend on the processing

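With quantile normalization, array median centring and the robust prior the same 14 members were lower, and in each setting tried 0 members were higher. With array weights 15 members were lower: DDX10 and NIP7 were added and RRP9 was lost (adjusted p = 0.0524). The median of all genes moved by under 0.1 in every setting. With the replicate number as a block, 7 members were called lower, all among the 14, with 3 snoRNP, 2 small subunit and 0 general nucleolar genes and 8 of the further ribosome biogenesis genes. The block takes residual degrees of freedom, and the share of all genes called lower was then 2.43%. With the most variable probe set the median of the members was -0.14, and 3 snoRNP and 11 further genes were called. With _s_at and _x_at probe sets dropped, 5 members had no value, among them UTP14A, NOP56 and PA2G4. In that setting 9 members were called, with 3 snoRNP and 1 large subunit gene. Of these 7 were among the 14, and 2, WDR3 and NPM1, were added. As single probe sets, 5 of the large subunit factors' probe sets were called. Leaving out 1 array gave 5 to 9 called members: 2 to 4 snoRNP, 2 to 4 small subunit, 1 to 2 large subunit, 0 general nucleolar and 4 to 13 further genes. PCGF1 kept its call in all settings (leave-one-out log2 fold change -0.48 to -0.39).

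Signs turned for NIFK, at -0.11 with all arrays and probe sets, and for members nearer 0, none of which passed in any setting. UTP20 was at 0.00 with quantile normalization and with array weights, BYSL at 0.00 and POLR1C at 0.03 with _s_at and _x_at probe sets dropped, as NIFK was at 0.12. With 1 array left out UTP20 ranged from -0.02 to 0.02, BYSL from -0.03 to 0.04, WDR12 from -0.06 to 0.07, RRS1 from 0.00 to 0.04, PES1 from -0.08 to 0.00 and POLR1C from -0.06 to 0.03. The cause was not tested. Filters on dim probe sets could not be run.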
